A study of Homo sapiens with 6 samples.

Results

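The transcriptome of control HEK293 cells was described from 2 of the 6 RNA-seq libraries of the series. HEK293 is an established human line made by transforming embryonic kidney cultures with sheared adenovirus DNA. The cells were grown in DMEM under CO2, transfected with an siRNA by means of Lipofectamine RNAiMAX, lysed in TRIzol 48 hours later and made into libraries with a TruSeq RNA kit from what the labels call polyA RNA. The control cells received the NTC siRNA, which the labels spell out as "No template control", so every value here is that of transfected cells and not of untouched ones. The records of the other 4 libraries name the control or siRNAs against 2 circular RNAs, and those libraries enter only as ranges.

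The members were chosen by library identifier, as the 2 count columns from which the control columns of the authors' deposited tables were made. All 474 genes compared in one of those tables and all 2192 in the other were constant multiples of these 2 count columns. The sample record of control replicate 2 disagrees with that grouping: its title is circRAB3IP_KD_rep2 and its genotype entry names a circCAMSAP1 knock-down. Which of the sources is right was not tested, and the value of each library is therefore printed separately, replicate 1 first and replicate 2 second. Nothing in the labels says whether the libraries came from separate cultures, so the spread between them may be technical. With no contrast in the design, no test was run and no p-value is given.

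As background, HEK293 cells are the standard host for expressing receptors, channels and immune sensors from plasmids, in part because few of these genes are active in the line itself. The integrated viral E1A protein binds the retinoblastoma family, which keeps the cells dividing. Their tissue of origin has long been discussed, since they combine genes of embryonic kidney, of nerve cells and of the adrenal gland. Viral transcripts are not analysed here.

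The libraries held 37379217 and 39637733 fragments assigned to genes, which were the lowest and the highest totals of all 6. Levels are given as FPKM, the fragments of a gene per kilobase of its exons per 1000000 assigned fragments. A gene was called expressed at 1 FPKM or more in both libraries and at the floor with at most 3 fragments in each, which for a gene of 1 kilobase is 0.0803 and 0.0757 FPKM. Genes in between are called low.

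Of 19250 protein-coding genes on the chromosomes, 10946 (56.9%) were expressed, 4790 were low and 3514 (18.3%) were at the floor, among them 2118 with no fragment in either library. The median over all 19250 genes was 2.17 FPKM, and that of the expressed genes was 7.62 FPKM. At least 10 FPKM in both libraries was reached by 4176 genes, 100 FPKM by 245 and 1000 FPKM by 7. The fragments were spread over many genes: 1255 genes in replicate 1 and 1294 in replicate 2 held 50% of the fragments of protein-coding genes, and the 10 with the most fragments held 3.66% and 3.64%.

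Protein-coding genes took 80.4% and 81.3% of all assigned fragments when the clustered histone genes, at 1.39% and 1.21%, are counted apart. Grouped by annotated type, long noncoding RNA genes took 3.44% and 3.34%, small structured RNAs 5.17% and 5.25%, and pseudogenes 1.54% and 1.57%. Identifiers with no entry in GENCODE 29, apart from those named as clustered histone genes, took 8.02% and 7.33%. The highest levels belonged to short structured RNAs. RN7SL2, a gene of the signal recognition particle RNA on chromosome 14 (hg19, 50329271 to 50329567), stood at 102952 and 94196 FPKM. An unnamed identifier of 300 bases on the same chromosome, ENSG00000258486 (50053297 to 50053596), stood at 108608 and 101271 FPKM. Both were counted among the identifiers with no GENCODE 29 entry. RN7SL2 took 3.06% and 2.80% of fragments, and ENSG00000258486 took 3.26% and 3.04%. Structured RNAs are therefore not all within the 5.17% and 5.25%.

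Of the noncoding genes with a GENCODE 29 type, the highest was 7SK, the RNA that holds the elongation factor P-TEFb inactive, at 74705 and 70276 FPKM. RN7SL5P, a signal recognition particle RNA copy, stood at 31488 and 32191 FPKM. RMRP, the RNA of the ribonuclease MRP, followed at 28603 and 24283 FPKM. ENSG00000259001, an antisense gene on chromosome 14, reached 16426 and 13020 FPKM, and SNORD3C, a copy of the U3 RNA that guides the first cuts of ribosomal RNA, 9798 and 10510 FPKM. By annotated type, RMRP (0.767% and 0.651% of fragments) and ENSG00000259001 (1.05% and 0.831%) were counted as long noncoding RNA genes in the shares above. Ranked by fragments instead of FPKM, which brings in the long mRNAs of EEF1A1 and EEF2, the 10 leading genes of any type took 13.75% of fragments in replicate 1 and 12.98% in replicate 2. The structured RNAs and the clustered histone mRNAs normally lack a poly(A) tail, and the labels name polyA RNA; how the selection worked in these libraries was not tested. For genes shorter than a sequenced fragment, FPKM is less secure than for mRNAs.

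Of the 19250 protein-coding genes, the 25 most abundant were 6 clustered histone genes, 10 cytosolic ribosomal proteins, 2 elongation factors and 7 others. H1-2, a linker histone that packs DNA between nucleosomes (chromosome 6, hg19, 26055968 to 26056699), was first with 1887 and 1657 FPKM. H1-4, its neighbour in the same cluster, was second with 1717 and 1606 FPKM. Both linker histones were higher in replicate 1, and so were the nucleosome histones H4C3 (1228 and 1132 FPKM), H2AC20 (967 and 799 FPKM), H2BC12 (888 and 756 FPKM) and H3C14 (614 and 533 FPKM). Other histone genes have identifiers with no entry in GENCODE 29 and so fall outside the 19250 genes and this ranking. Among them HIST1H3B was measured at 1570 and 1366 FPKM and HIST1H3H at 913 and 801 FPKM. HIST1H4D had 915 and 751 FPKM, and HIST1H4B 747 and 681 FPKM. These levels lie within the range of the 25, so the ranking understates the place of histone genes.

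RPS2, a protein of the small ribosomal subunit, led the ribosomal genes with 1324 and 1210 FPKM. RPL7A, of the large subunit, had 1256 and 1227 FPKM. Further members of that group were RPL13A, RPS4X, RPS12, RPL19, RPS18, RPL35 and RPS27, whose means ran from 535 FPKM for RPS27 to 848 FPKM for RPL13A. Translation elongation was represented by EEF1A1, which brings aminoacyl-tRNA to the ribosome, at 1154 and 1206 FPKM, and by EEF2, which moves the ribosome along the mRNA, at 913 and 902 FPKM. The libraries differed least for RPL13A (848 and 848 FPKM).

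The 7 others served iron storage, the cytoskeleton, glycolysis, folding and RNA binding. FTL, the ferritin light chain, had 1035 and 1008 FPKM in the controls, and 1271 to 1625 FPKM over the 4 libraries not described here. TMSB10, a thymosin that binds actin monomers, had 892 and 828 FPKM. ENO1, the glycolytic enolase, had 735 and 635 FPKM, while ACTG1, the cytoplasmic gamma actin, had 611 and 735 FPKM. HSPA1B, an inducible HSP70 chaperone, had 644 and 537 FPKM. PLS3, the actin-bundling plastin 3, had 497 and 589 FPKM, and YBX1, a cold-shock domain protein that coats mRNA, had 547 and 512 FPKM. Of the 25, only EEF1A1, RPL13A, RPS12, ACTG1, PLS3 and RPS27 were higher in replicate 2 by FPKM. The scaling factors of edgeR for replicates 1 and 2 were 0.977 and 1.024, so the direction is uncertain where the values are close.

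**Figure D1:**
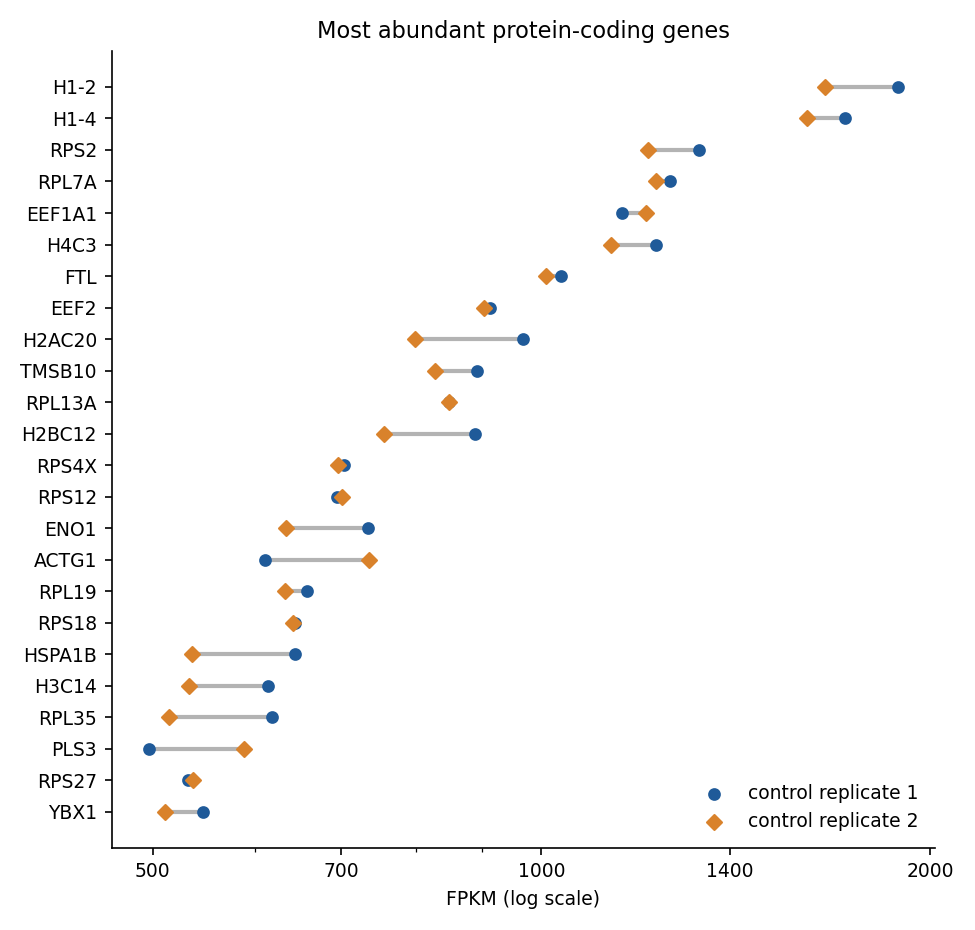
FPKM of 24 of the 25 most abundant protein-coding genes (log scale; the other is not reported here), with control replicate 1 as circles, control replicate 2 as diamonds and a grey line between them. The order runs from H1-2 at 1887 and 1657 FPKM to YBX1 at 547 and 512 FPKM, and the lines are longest for HSPA1B, H2AC20, RPL35, ACTG1 and PLS3.

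Sequence around the start sites is shown for some of these genes because their mRNAs share an early pyrimidine run. As background, mRNAs of the translation machinery typically begin with a C followed by pyrimidines, a feature through which the mTOR pathway controls their use. RefSeq promoters (GRCh38.p14, 250 bases before to 50 after the annotated start) were at hand for 22 of the 25 genes. The 30 bases printed run from 12 before the start to 18 from the start onward, so the first transcribed base is the 13th, and capitals mark a C within 5 bases of the start followed by at least 4 bases that are C or T, read on the strand of the gene. They are, for a large-subunit protein (chr9:133348206-133348235, plus strand), the elongation factor genes (chr6:73521015-73521044 and chr19:3985446-3985475, both minus), a small-subunit protein (chr1:153990750-153990779, plus) and, for contrast, 2 genes with no such run (chr1:8878669-8878698, minus, and chr1:42682406-42682435, plus):
RPL7A: caattccCTTTCCTTTCTCTCTCCTCCCgc
EEF1A1: gccgtgaacgttCTTTTTCgcaacgggttt
EEF2: gacgtcagcgttCTCTTCCgccgtcgtcgc
RPS27: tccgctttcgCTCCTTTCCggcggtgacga
ENO1: ggcggcgcggacagtatctgtgggtacccg
YBX1: gcctgtcccgccattctcgctagttcgatc

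The run was found in 7 of the 8 ribosomal protein promoters of the list (not in RPS4X), in both elongation factor promoters, in 2 of 5 histone promoters and in 2 of the 7 others, FTL and TMSB10. Among the 100 most abundant genes, 45 of 87 promoters had it (51.7%). Its share was 21.5% of 9050 promoters of expressed genes, 20.6% of 3469 of low genes and 19.0% of 2469 of genes at the floor. Over all 14988 promoters of these protein-coding genes it was 20.85%. All 27305 promoters of the table, which cover further genes, had a share of 19.6%. The share thus stood out in the most abundant genes and differed little among the wider classes.

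A TATA box was searched as TATAAA or TATATA, which can overlap each other, starting 45 to 21 bases before the start on the strand of the gene. The 30 bases from 45 before the start are shown for the leading linker histone (chr6:26056486-26056515, minus strand), both elongation factors (chr6:73521048-73521077 and chr19:3985479-3985508, minus) and the HSP70 gene (chr6:31827693-31827722, plus), with 1 match in capitals (in H1-2 another begins 2 bases further on):
H1-2: cgcctgcgctcTATATAtacagcggccctg
EEF1A1: ggtgggggagaaccgTATATAagtgcagta
EEF2: caaccggcgtccgccTATAAAaagctgagt
HSPA1B: ggtctccacgacgactTATAAAagccgagg

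All 5 histone promoters of the list held these letters, as did 11 of the 22 promoters in total and 25 of the 87 of the 100 most abundant genes (28.7%). The share was 2.04% in expressed genes, 6.11% in low genes and 12.6% in genes at the floor, against 4.72% over all these protein-coding genes. For all promoters of the table, which cover further genes, it was 3.51%. Promoters at the opposite ends of the abundance range thus held the box more often than the bulk of expressed genes. The median number of CG dinucleotides in the 300 bases was 27 in expressed genes, 13 in low genes and 4 in genes at the floor. No test was run on these shares, and a match of letters is not a site.

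Within gene families that divide one task between tissues, a single member mostly held the family's summed FPKM. PKM, the pyruvate kinase of most tissues, stood at 168 and 154 FPKM, while PKLR, of liver and red cells, was at the floor. PGK1 had 102 and 98.7 FPKM and its testis copy PGK2 no fragment. ENO1 held 99.1% and 98.8% of the enolase family, beside ENO2, the form of neurons, at 5.07 and 6.25 FPKM. ALDOA held 96.5% and 95.7% of the aldolases, and CKB, the brain-type creatine kinase, 94.9% and 94.2% of its family at 96.1 and 75.4 FPKM.

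Other families were shared. LDHB, the heart-type lactate dehydrogenase, had 354 and 341 FPKM beside 122 and 109 FPKM of LDHA, the muscle type, and LDHC, known from testis, still had 6.23 and 5.58 FPKM. Glucose uptake was led by SLC2A3, the high-affinity transporter of neurons, with 52.3 and 51.4 FPKM, ahead of SLC2A1 with 13.4 and 11.9 FPKM; part of the first value may be shared with SLC2A14, a close copy at 2.05 and 2.22 FPKM. HK1 held 80.2% and 81.0% of the hexokinases, and HK2 had 5.07 FPKM in both libraries. Among the adenine nucleotide translocases, SLC25A5 had 234 and 215 FPKM, SLC25A6 24.9 and 22.1 FPKM and SLC25A4, the heart and muscle form, 13.1 and 11.2 FPKM.

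The cytoskeletal families were carried by the non-muscle forms. ACTG1 held 55.7% and 56.9% of the actins and ACTB, at 483 and 555 FPKM, nearly all of the rest. The muscle actins ACTA1 and ACTC1 were low and ACTG2 was at the floor, while ACTA2 stood at 2.22 and 2.60 FPKM. Alpha tubulin came from TUBA1C (249 and 228 FPKM), TUBA1B (230 and 206 FPKM) and TUBA1A (80.4 and 88.3 FPKM), which are nearly identical to each other, so the split among them is uncertain. TUBB had 367 and 377 FPKM and TUBB4B 367 and 296 FPKM. Of the chaperones, HSP90AB1, the constitutive HSP90, had 527 and 486 FPKM, HSP90AA1 142 and 140 FPKM, and HSPA8, the constitutive HSP70, 349 and 318 FPKM. HSPA1A, almost the same sequence as HSPA1B, had only 29.4 and 24.0 FPKM, and the sum of that pair is more secure than either.

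**Figure D2:**
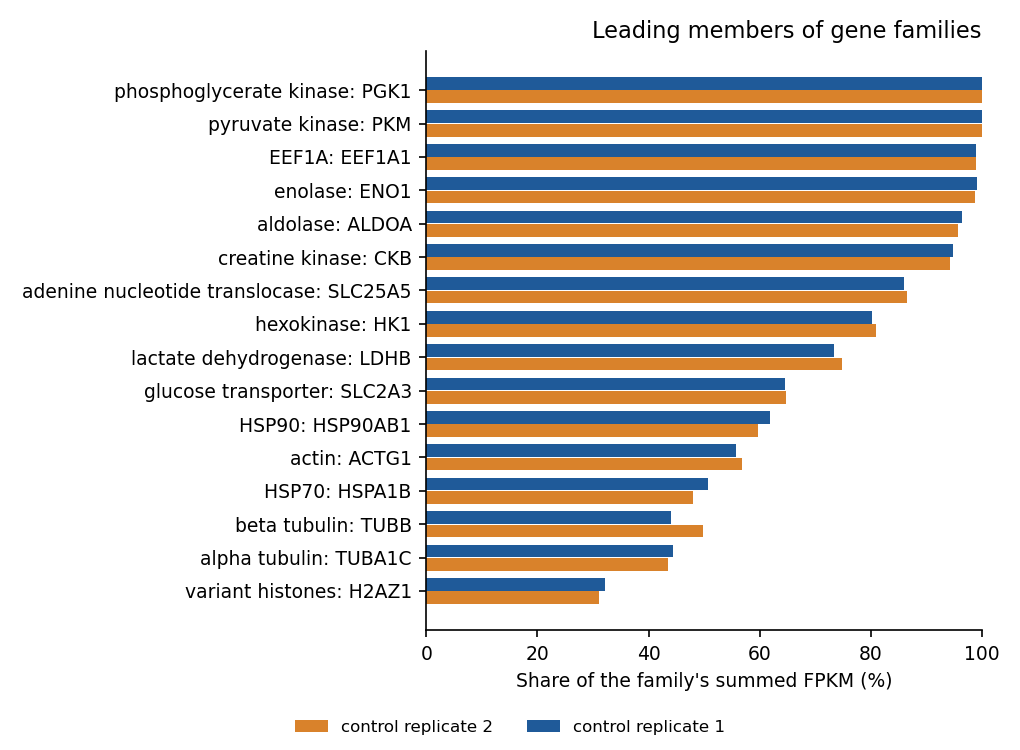
Share of the summed FPKM of 16 gene families held by its leading member, in percent from 0 to 100, with 1 bar for each control library. PGK1, PKM, EEF1A1 and ENO1 hold nearly all of their families, and H2AZ1, at 32.3% and 31.1%, is the leading member with the smallest share.

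Some levels depend on how fragments were assigned. Fragments over exons of more than 1 gene were not counted, and EEF1G, an elongation factor subunit with 0.775% of its exon bases free of other genes, was listed at 0.018 and 0.051 FPKM, with 2 and 6 fragments. EIF4A1, the helicase of translation initiation, with 51.4% of its bases free, had 2.95 FPKM in both libraries. Of 396 protein-coding genes with under 10% of their bases free, 84.1% were at the floor, against 18.03% of the 15798 with at least 90% free. In addition, fragments that align to several places were counted once at their primary alignment, so pseudogene copies take part of some mRNAs. Copies named after EEF1A1 held 29.8% and 30.2% of the fragments of gene and copies together, led by EEF1A1P5 at 1080 and 1150 FPKM, and copies named after RPS2 held 20.9% and 20.1%. For the other 23 genes of the list the share was at most 6.34% in either library. None of the 37 genes of the mitochondrial sequence had a fragment in either library, and mitochondrially encoded mRNAs are not analysed here.

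Several factors of the embryonic kidney were measured above the threshold, most of them at low levels, while genes of the mature nephron mostly were not. Of 10 nephron progenitor markers 7 were expressed, near the 56.9% of all protein-coding genes, and the list median of 1.26 FPKM lay below the 2.17 FPKM over all genes. The 1 gene CITED1 held 70.3% and 56.9% of the summed FPKM of the list. CITED1, a transcriptional co-activator of the cap mesenchyme, had 34.8 and 19.7 FPKM. WT1, needed for nephron formation, had 3.49 and 3.40 FPKM. LHX1, EYA1 and SALL1 were expressed with means of 1.22 to 1.44 FPKM, and SIX2, the factor that keeps the progenitors renewing themselves, had 1.08 and 1.19 FPKM. PAX2, a defining factor of the same cells, was nearly silent with 4 and 9 fragments.

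Of 9 measured renal epithelial transcription factors, 4 were expressed (44.4%, beside 56.9% of all protein-coding genes). POU3F3, a factor of the loop of Henle, had 2.63 and 3.21 FPKM, TFCP2L1, of the collecting duct, 2.09 and 2.51 FPKM, GATA3 1.69 and 1.71 FPKM, and EMX2 1.03 and 1.28 FPKM. PAX8 was low at 0.084 and 0.117 FPKM, and HNF4A, the proximal tubule regulator, was at the floor, as was FOXI1 with no fragment. Of 20 genes of the differentiated nephron 10 were at the floor, where 18.3% of all protein-coding genes lay. They included NPHS1 of the podocyte slit, the transporters SLC34A1, SLC22A6 and SLC22A8, and the podocyte phosphatase PTPRO. PODXL, a sialomucin of podocytes that other cells also make, had 5.27 and 6.01 FPKM, and ATP6V1B1, a proton pump subunit of intercalated cells, 1.62 and 1.49 FPKM.

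Adrenal genes were largely missing. Of 12 adrenal cortex genes only FDX1 (9.88 and 9.14 FPKM) and FDXR (9.37 and 8.69 FPKM) were expressed, the electron carriers that most mitochondria contain. NR5A1, the master regulator of steroid-producing cells, and the steroid hydroxylases CYP11A1, CYP11B1, CYP11B2 and CYP21A2 were at the floor. In the sympathoadrenal list, GATA2 was the 1 expressed gene of 14, at 6.49 and 5.98 FPKM. PHOX2A, a factor that specifies that lineage, and DBH, the enzyme that makes noradrenaline, were at the floor.

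Neuronal markers were split between a few high genes and many low ones. Of 20 such markers 6 were expressed (30%, below the 56.9% of all protein-coding genes). The list median was 0.159 FPKM, below the 2.17 FPKM over all genes. UCHL1, a ubiquitin hydrolase abundant in neurons, had 174 and 154 FPKM, and NEFL, the light neurofilament, 37.2 and 42.8 FPKM. ENO2, NCAM1, GAP43 and SYT1 had means between 1.06 and 5.66 FPKM. STMN2, DCX, ELAVL2 and ELAVL4, genes of differentiating neurons, were at the floor. Among 10 glial markers SLC1A3, a glutamate transporter, had 9.73 and 10.1 FPKM, and the other 9 were low.

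Keratins of simple epithelia stood beside mesenchymal genes. KRT8 had 185 and 172 FPKM and its partner KRT18 141 and 133 FPKM, while KRT19 had 26.3 and 22.6 FPKM. The tight-junction protein OCLN had 8.41 and 9.35 FPKM and the splicing factor ESRP2 6.23 and 6.52 FPKM. CDH1, the defining epithelial cadherin, had 3 and 18 fragments, EPCAM was low at 0.117 and 0.080 FPKM, and the basal keratin KRT14 and the epithelial regulator GRHL2 were at the floor. Of 15 epithelial markers 5 were expressed, and of 15 mesenchymal markers 9, or 60%, near the 56.9% of all protein-coding genes. VIM, the mesenchymal intermediate filament, had 43.4 and 53.8 FPKM, CDH2, the neural and mesenchymal cadherin, 14.98 and 17.49 FPKM, ZEB1, a repressor of epithelial genes, 8.58 and 11.3 FPKM, and TWIST1 4.80 and 4.63 FPKM. The collagen gene COL1A2 was at the floor.

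Markers of other lineages were nearly all low or at the floor. No gene of 9 endothelial, 12 muscle and 10 hepatocyte markers was expressed; their highest means were 0.336 FPKM for VWF, 0.970 FPKM for PAX7 and 0.277 FPKM for FOXA2. The blood list had 1 expressed gene of 14, while PTPRC, CD3E, MS4A1, SPI1 and HBB were at the floor. Summed over the 14 genes, the blood list came to 1.77 and 2.09 FPKM. Of the pluripotency list, LIN28B, a protein that blocks let-7 maturation, had 14.58 and 16.03 FPKM and SOX2 5.64 and 5.53 FPKM, with NANOG, DPPA4, ZFP42, PRDM14 and TDGF1 at the floor and POU5F1 low at 0.409 and 0.456 FPKM. PRAME, a cancer-testis antigen, had 24.5 and 28.7 FPKM and MAGEA3 2.44 and 2.61 FPKM, and 10 of the 15 genes of that list were at the floor.

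**Figure D3:**
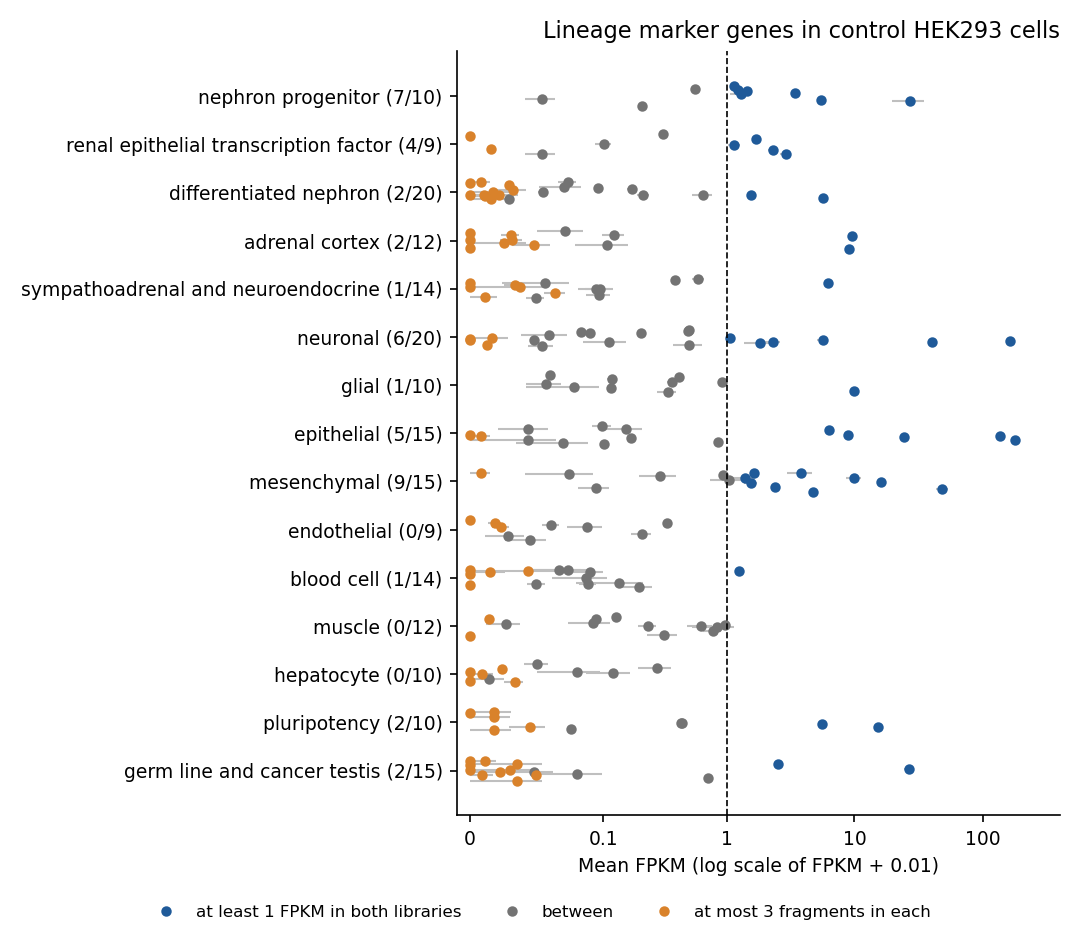
Mean FPKM of the marker genes of each lineage list, on a log scale of FPKM + 0.01, with a grey line between the 2 libraries. Colours mark genes with at least 1 FPKM in both libraries (the dashed line stands at 1 FPKM), low genes and genes with at most 3 fragments in each, and the counts in brackets are expressed over measured members, from 7 of 10 nephron progenitor markers to 0 of 12 muscle markers.

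Toll-like receptors were low or at the floor, and the other parts of microbe sensing were mixed. None of 10 Toll-like receptors was expressed. TLR6 had 0.878 and 0.899 FPKM, TLR1 0.702 and 1.05 FPKM, TLR3, the sensor of double-stranded RNA, 0.589 and 0.912 FPKM, and TLR5, the flagellin sensor, 0.374 and 0.369 FPKM. TLR2, TLR4, TLR7, TLR8 and TLR9 were at the floor, although only 10.8% of the exon bases of TLR9 are free of other genes, so its level is uncertain. LY96, the partner TLR4 needs for lipopolysaccharide, was at the floor too. Of the 10 co-receptors and adaptors 5 were expressed (50%, near the 56.9% of all protein-coding genes). The kinase IRAK1 had 109 and 87.0 FPKM, the ligase TRAF6 8.58 and 9.21 FPKM, IRAK4 3.95 and 4.09 FPKM and the TLR3 adaptor TICAM1 2.78 and 2.91 FPKM. MYD88, the adaptor most Toll-like receptors use, had only 13 and 8 fragments (0.087 and 0.051 FPKM).

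Of 9 cytosolic nucleic acid sensors, 4 were expressed (44.4%), beside 56.9% of all protein-coding genes. EIF2AK2, the kinase that halts translation on double-stranded RNA, had 11.6 and 12.5 FPKM. The RNA helicases IFIH1 and DDX58, now named RIGI, had 2.45 and 3.14 and 1.90 and 1.95 FPKM. On the DNA side, CGAS, which makes the messenger cGAMP, had 2 and 3 fragments, and AIM2, IFI16 and ZBP1 were at the floor, whereas STING1, the receptor of cGAMP, had 4.70 and 5.14 FPKM. All 6 measured adaptors and kinases were expressed, led by MAVS at 17.3 and 17.4 FPKM, TBK1 at 12.3 FPKM in both libraries and IRF3 at 11.5 and 10.8 FPKM. No inflammasome gene of 8 was expressed, and NLRP3, CASP1, PYCARD and GSDMD were at the floor, of which PYCARD is uncertain because only 40.3% of its exon bases are free of other genes. Of the 14 interferon receptor and JAK-STAT genes 12 were expressed (85.7%, beside 56.9% of all protein-coding genes). JAK1 had 25.7 and 25.5 FPKM and the interferon gamma receptor chain IFNGR1 13.2 and 13.1 FPKM.

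Of 53 receptor tyrosine kinases 24 were expressed (45.3%, beside 56.9% of all protein-coding genes), the highest mean being 13.2 FPKM. RYK, a Wnt co-receptor, had 13.3 and 13.2 FPKM, FGFR3 11.3 and 9.56 FPKM, the hepatocyte growth factor receptor MET 9.46 and 10.5 FPKM, TYRO3 9.02 and 9.31 FPKM, PTK7 8.30 and 9.12 FPKM and EPHB4 8.47 and 8.26 FPKM. NTRK3, TIE1 and ALK were at the floor. G protein alpha subunits, which couple receptors to their effectors, were expressed in 11 of 15 cases (73.3%, beside the same 56.9%). GNAS, the stimulatory subunit, had 51.7 and 58.6 FPKM, GNAI3, an inhibitory one, 41.8 and 40.8 FPKM and GNA13 19.4 and 20.8 FPKM, while GNAT1 of rods and GNA15 of blood cells were at the floor. Of the proteins that switch receptors off, GRK6 had 26.3 and 23.2 FPKM, GRK2 16.1 and 14.9 FPKM, ARRB2 13.98 and 13.90 FPKM and ARRB1 3.68 and 4.56 FPKM.

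Of the G protein-coupled receptors in 5 ligand groups, 9 of 53 measured were expressed (17.0%, against 56.9% of all protein-coding genes). Among 8 measured adrenergic receptors ADRA2C had 4.13 and 4.03 FPKM, with ADRA1A, ADRA2A and ADRB3 at the floor. CHRM3 was the expressed muscarinic receptor at 1.99 and 2.55 FPKM, and CHRM2 had no fragment. Adenosine and nucleotide receptors were represented by ADORA2B at 5.71 and 5.83 FPKM, P2RY1 at 2.77 and 3.63 FPKM and P2RY2 at 1.001 and 1.067 FPKM, the last at the threshold. For lysophospholipids LPAR1 had 9.23 and 10.6 FPKM, S1PR2 3.67 and 3.33 FPKM and LPAR2 1.40 and 1.37 FPKM. None of the 18 dopamine, serotonin and opioid receptors was expressed; HTR2C was the highest at 0.801 and 1.12 FPKM.

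Nuclear receptors, which act as ligand-gated transcription factors, were expressed in 23 of 47 cases (48.9%, near the 56.9% of all protein-coding genes). NR2F6 had 21.8 and 20.5 FPKM, ESRRA, a regulator of mitochondrial genes, 14.9 and 13.5 FPKM, the glucocorticoid receptor NR3C1 10.6 and 12.2 FPKM and NR1D2, of the circadian clock, 8.45 and 9.44 FPKM. NR1I2, RORB, HNF4A and NR5A1 were at the floor. The oestrogen receptor ESR1 and the progesterone receptor PGR, chosen after their values were seen, were low at 0.053 and 0.063 FPKM and at 0.032 and 0.054 FPKM.

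Voltage-gated channels were close to silent. No sodium channel of 9 was expressed, the highest being SCN9A at 0.769 and 1.40 FPKM. CACNA1H, a T-type channel, was the only expressed calcium channel of 10, at 8.48 and 7.23 FPKM, and it held 91.0% of the summed FPKM of that list in both libraries. Of 22 potassium channels 4 were just above the threshold, led by KCNQ5 at 1.35 and 1.71 FPKM and KCNC4 at 1.25 and 1.43 FPKM, and 6 were at the floor. Channels that answer to stores, stretch and volume were expressed in 11 of 26 cases (42.3%, below the 56.9% of all protein-coding genes), and TRPV1, ORAI3 and LRRC8E of that list have under 50% of their exon bases free of other genes. TRPM7 had 12.7 and 14.5 FPKM, LRRC8A, the required subunit of the volume-regulated anion channel, 11.98 and 10.93 FPKM, PIEZO1, the stretch-activated channel, 10.1 and 9.43 FPKM and STIM1, the calcium sensor of the endoplasmic reticulum, 6.04 and 7.41 FPKM. TRPM2 and TRPM8 were at the floor.

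Proteins that viruses use to enter cells were expressed in 16 of 24 cases (66.7%, near the 56.9% of all protein-coding genes). TFRC, the transferrin receptor, had 74.0 and 59.4 FPKM, SLC20A1, a phosphate transporter used by gibbon ape leukaemia virus, 26.5 and 26.3 FPKM, the poliovirus receptor PVR 19.7 and 18.4 FPKM and DAG1 15.5 and 16.6 FPKM. Outside the naming rule, and chosen after its values were seen, was CXADR, the coxsackievirus and adenovirus receptor, with 8.74 and 10.5 FPKM. CD209 had no fragment.

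**Figure D4:**
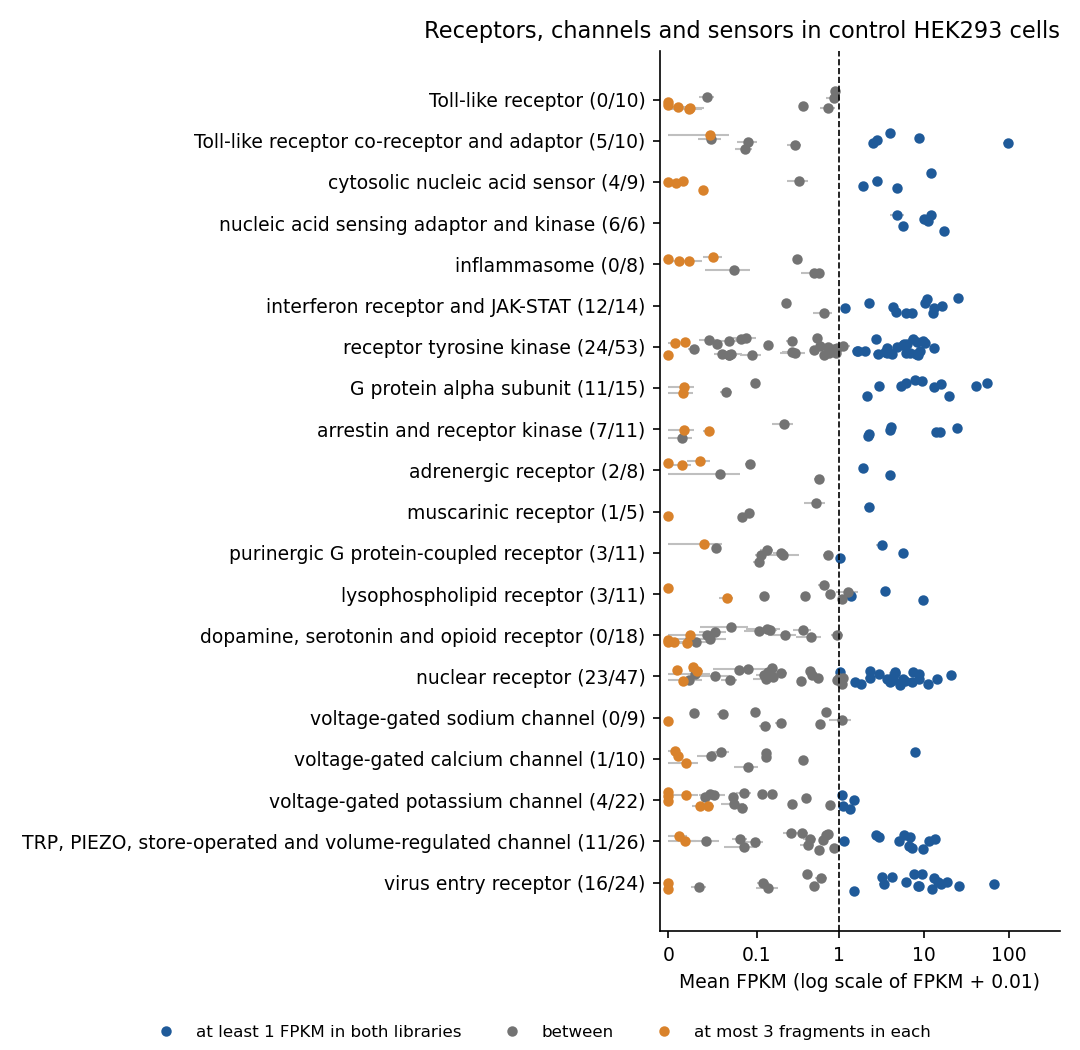
Mean FPKM of genes for sensors, receptors, channels and virus entry, by list, on a log scale of FPKM + 0.01, with a grey line between the 2 libraries and the same 3 colours as for the lineage markers. Brackets give expressed over measured members: all 6 nucleic acid sensing adaptors lie right of the dashed line at 1 FPKM, and none of the 10 Toll-like receptors, 8 inflammasome genes, 9 sodium channels or 18 dopamine, serotonin and opioid receptors does so in both libraries.

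Genes listed for RB, p53 and telomerase were expressed in 13 of 14 cases (92.9%, beside 56.9% of all protein-coding genes). MDM2, a ubiquitin ligase, had 52.2 and 57.6 FPKM, E2F1, the factor that RB holds back, 31.9 and 30.2 FPKM, and CDKN2A, the p16 and p14ARF locus, 28.7 and 24.9 FPKM. CDKN1A, the p21 inhibitor, had 26.4 and 23.5 FPKM. TERT, the catalytic subunit of telomerase, was the 1 gene under the threshold, with 0.591 and 0.749 FPKM, whereas DKC1, which stabilises the telomerase RNA, had 29.3 and 26.9 FPKM.

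The machinery for making and folding proteins was expressed almost throughout. Of 24 translation factors 23 were expressed with a list median of 51.2 FPKM, and the exception was EEF1G, described above. All 13 measured proteasome core subunits were expressed, from PSMA6 at 3.21 and 2.72 FPKM to PSMA7 at 107 and 98.8 FPKM, while of the 4 subunits that replace them in immune cells and testis only PSMB10 passed, at 1.20 and 1.42 FPKM, with PSMA8 at 0. CCT7 led the chaperonin ring at 247 and 211 FPKM, and 8 of its 9 genes were expressed; CCT6B, known from testis, was not. All 12 nucleolar genes were expressed, led by NPM1 at 407 and 388 FPKM, as were all 14 genes commonly used as references, led by ACTB at 483 and 555 FPKM.

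Over all 59 lists, 683 distinct genes were measured, of which 315 were expressed and 119 were at the floor. The lists were chosen with earlier results of these data known, and their counts describe these libraries only. Counts of expressed members are to be read against the 56.9% of all protein-coding genes that were expressed, also where no share is printed. Counts at the floor are to be read against 18.3%.

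The 2 control libraries resembled each other closely above low abundance. Among 7130 protein-coding genes with a mean of at least 5 FPKM, the SD of the log2 ratio of replicate 2 to replicate 1 was 0.15, and 13 genes (0.182%) differed by more than 1.5-fold, 6 of them higher in replicate 2. No gene of that set reached 2-fold. The direction depended on the scaling. With library sizes from edgeR 14 genes passed 1.5-fold, 2 of them higher in replicate 2. With those from DESeq2 it was 13 genes, 2 of them higher in replicate 2. The biological coefficient of variation, the relative spread beyond counting noise that edgeR estimates, was 8.79%. That estimate rests on a different set, 20127 genes of any type that passed a count filter, with library sizes scaled by edgeR. Of all 15 pairs among the 6 libraries, this pair had the third smallest SD, while the pair whose titles say Control ranked 11 with an SD of 0.25 and 198 genes past 1.5-fold. The squared differences between the control libraries were on average 19.7 times those expected from counting alone; over all 15 pairs this ratio ran from 15.7 to 62.5.

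The differences had a slope with gene length and with abundance. The median log2 ratio was -0.08 in the shortest of 4 equal classes of these genes, -0.02 and 0.02 in the middle classes and 0.10 in the longest. By abundance it was 0.10 at 1 to 5 FPKM and -0.09 at 100 FPKM or more. The 6 clustered histone mRNAs above, which are short and abundant, were higher in replicate 1 by FPKM. RPS12 (767 bases, 695 and 700 FPKM) and RPS27 (946 bases, 533 and 538 FPKM) were slightly higher in replicate 2. Length and abundance were not combined, and the cause of the slopes was not tested.

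**Figure D5:**
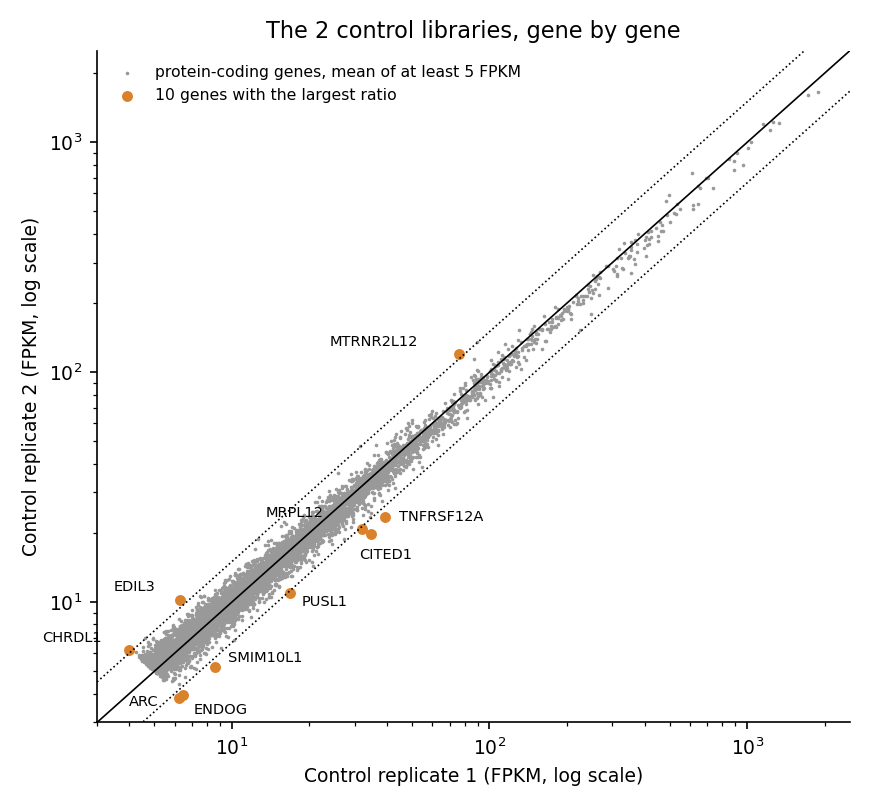
FPKM of 7130 protein-coding genes in control replicate 1 and control replicate 2, both on log scales, with the line of equality and dotted lines at 1.5-fold. Nearly all points lie between the dotted lines, and the 10 coding genes with the largest ratio, from CITED1 to PUSL1, are named.

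Across genes of every type with a symbol and a mean of at least 5 FPKM, the 10 that differed most were short: the microRNA genes MIR3685 and MIR4737, the small nucleolar RNA genes SNORD8, SNORA2B, SNORA50B, SNORD72, SNORA53, SNORD53B and SNORA74A, and the 80-base pseudogene BRCA1P1. They rest on few fragments, as in MIR3685 with 8 and 28 fragments, except SNORA53 (291 and 621) and SNORA74A (232 and 477).

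Among coding genes, named after their values were seen, CITED1 differed most: 34.8 and 19.7 FPKM, 1.76-fold higher in replicate 1, with 6.14 to 15.1 FPKM over the 4 other libraries. It is also the highest of the nephron progenitor markers above, and it was the leading one in each control library alone. TNFRSF12A, the receptor of the cytokine TWEAK, had 39.1 and 23.4 FPKM, with 50.2 to 76.3 FPKM over the other 4. ENDOG, SMIM10L1, ARC, MRPL12 and PUSL1 were also higher in replicate 1, by 1.53-fold to 1.64-fold. EDIL3, an integrin ligand of the extracellular matrix, went the other way with 6.32 and 10.3 FPKM, as did MTRNR2L12 (76.0 and 120 FPKM) and CHRDL1, an antagonist of bone morphogenetic proteins (4.001 and 6.181 FPKM). SMIM10L1 and MRPL12 have only 28.7% and 31.8% of their exon bases free of other genes.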

How the data were processed

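The authors deposited counts of fragments per gene for the 6 libraries, made with featureCounts 1.6.0 from primary alignments whose mates both mapped, chimeric pairs left out and strand ignored, per the file headers. STAR and hg19 are named in the submitters' processing notes, with no version of the aligner given in the sources used here. The deposited signal columns of the control samples are counts that the authors scaled by 1 factor per library, and they served only to identify the control libraries (0 count columns were left without a sample).

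FPKM was computed with the length column and the sum of assigned fragments, in Python 3.11.15 and pandas 2.3.3. Of 63677 identifiers, 52526 had a symbol in the reference tables and 34 were named only by the deposited tables; types are from GENCODE 29. The 5941 identifiers outside the chromosomes had no fragment. Alternative library sizes came from edgeR 4.0.16 and DESeq2 1.42.0 in R 4.3.3, and the coefficient of variation from edgeR, tested on simulated data. Of 692 distinct genes in 59 lists, 683 were measured; those that were not include PECAM1, TUBB8, IKBKE, ADRA2B, ADORA3, NR2E3, ORAI1 and PSMB3.

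Named genes were the 25 most abundant coding and 5 most abundant noncoding genes, up to 6 of the highest and 6 at the floor per list, all members of families, and the 10 with the largest ratio between libraries. Others were chosen after their values were seen: RN7SL2, ENSG00000258486, HIST1H3B, SIX2, PAX2, PAX8, CDH1, EPCAM, POU5F1, MYD88, TERT, EEF1G, EIF4A1, EEF1A1P5, PSMA6, CCT6B, the coding genes that differed most, and those so marked. HIST1H3H, HIST1H4D and HIST1H4B were also chosen after their values were seen. Certain genes covered by the naming rule are left out of the text. The members and lists were chosen with earlier results of these data known. Counts of 0 allow up to 3 fragments, and this floor covers counting error only.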

Additional observations from a re-analysis of the deposited data

How the results depend on the processing

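Thresholds of 0.5 and 2 FPKM gave 11961 and 9650 expressed coding genes in place of 10946, and 367 and 275 expressed list genes in place of 315. Without 1 of the control libraries these counts ran from 11028 to 11175 and from 317 to 328, the share held by the 10 genes with the most fragments from 12.98% to 13.75%, and 24 of the 25 most abundant coding genes remained in each case. That share was 14.3% in the libraries titled Control, 14.1% over all 6, and 3.65% for the 10 leading coding genes as a share of coding fragments. The count of coding genes past 1.5-fold between the control libraries, 13, became 107 from 1 FPKM upward, 3000 with any fragment and 198 for the pair titled Control; the first 2 take in genes with fewer fragments. Lengths limited to bases free of other genes, and scaling to coding fragments alone, were added after seeing the data; they gave 11167 and 11256 expressed coding genes, and 321 and 330 expressed list genes. No paired analysis was possible because the design holds no comparison between groups.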

Other observations

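All 10 listed histone genes outside the replication clusters were expressed, beside 56.9% of all protein-coding genes, at lower levels than the leading clustered genes. H2AZ1, the variant found around promoters, had 207 and 179 FPKM, and its close relative H2AZ2 28.9 and 30.8 FPKM. H2AX, which is phosphorylated at DNA breaks, had 127 and 105 FPKM. H3-3B had 74.9 and 67.1 FPKM and H3-3A 43.5 and 40.1 FPKM; both genes encode the same protein. CENPA, the histone of centromeres, had 15.4 and 13.5 FPKM. All of these except H2AZ2 were higher in replicate 1.

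The HSP70 family was expressed in 9 of 12 cases. HSPA9, the mitochondrial form, had 119 and 110 FPKM and HSPA4, a nucleotide exchange factor, 81.9 and 77.7 FPKM, whereas HSPA5, the chaperone of the endoplasmic reticulum, had 20.5 and 22.1 FPKM. HSPA6, a strictly heat-induced member, was low at 0.212 and 0.143 FPKM, and so was HSPA1L, known from testis, at 0.194 and 0.221 FPKM.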
